A study of Mus musculus with 2 samples.

Results

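Central vein endothelial cells line the vein that drains each liver lobule. They were found here as cells with transcripts of Rspo3, Wnt9b, Selp and Lhx6, and 561 of the 14567 cells in both tables met the rule, 393 of them normal and 168 from fibrosis. The libraries are scRNA-seq (10x 3' chemistry, which counts unique molecular identifiers, UMIs) of hepatic non-parenchymal cells of 2 male C57BL/6 mice given as 8 weeks old, an age that the labels do not place at the first injection or at sampling. One was injected with olive oil (normal, labelled quiescent state) and the other with CCl4, a hepatotoxin that injures the hepatocytes around the central vein (fibrosis), 2 injections a week for 6 weeks. Cells came from collagenase perfusion, after which hepatocytes were spun out and the layers of a density gradient collected, so shares are of the cells that this recovered. With 1 mouse and 1 library per condition no test between conditions is possible, and every difference below is one between 2 libraries. Intervals are at 95% and cover counting error only.

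Endothelium around the central vein is known as the source of the Wnt ligands Wnt2 and Wnt9b and of R-spondin 3, a secreted protein that prolongs Wnt receptor signalling. These signals keep the neighbouring hepatocytes in their pericentral programme. The wall of the vein itself is lined by continuous endothelium with Weibel-Palade bodies, the granules that store von Willebrand factor (Vwf) and P-selectin (Selp), whereas the sinusoids that open into it have fenestrated endothelium with scavenger receptors such as Stab2 and Lyve1.

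A cell was kept with a mitochondrial share under 10% of UMIs and over 200 genes, which left 13603 cells. Members had at least 10 UMIs per 10000 of the endothelial genes Kdr, Ptprb and Pecam1, at least 3 UMIs of Rspo3, Wnt9b, Selp and Lhx6 together (the rule sum), at most 2 of the portal vessel genes Gja5, Nrg1 and Npr3, at most 2 of the stellate gene Lrat and of Reln, and at most 3 of the lymphoid and macrophage genes Cd79a, Cd3e and Cd5l. The comparison group was the other endothelial cells that passed the limits, 3082 normal and 2132 fibrosis, among them 259 and 92 portal vessel cells (3 or more UMIs of Gja5, Nrg1 and Npr3) and 904 and 462 pericentral sinusoidal cells (3 or more UMIs of Kit, Wnt2 and Cdh13, whose levels there are therefore set by the choice). Free RNA was read from 707 and 174 lymphoid cells. Members held 1111 to 25613 UMIs with a median of 6529 in the normal library and 1304 to 27914 with a median of 8383 in the fibrosis library. The libraries shared 15 cell barcodes, none of them a member in both.

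The values that chose the members are given as a description. Rspo3 stood at 21.7 UMIs per 10000 in normal and 11.2 in fibrosis members, and a UMI of it was held by 358 of 393 and 116 of 168. Wnt9b stood at 3.82 and 3.17, Lhx6, a LIM homeobox transcription factor, at 3.77 and 3.10, and Selp at 3.45 and 2.10. The median rule sum was 15 in normal and 10 in fibrosis members. All 4 genes were held by 163 normal members (41.5%) and 35 fibrosis members (20.8%). Selp alone admitted 3 normal and 5 fibrosis cells. At the edge of the rule, the 44 normal cells with a sum of 3 had Stab2 at 14.1 and Vwf at 0.827 UMIs per 10000, and the 101 normal cells just outside, with a sum of 2, had 13.9 and 0.416. In the fibrosis library the 25 cells at 3 had Stab2 at 11.9 and Vwf at 0.0399, and the 61 cells at 2 had 13.2 and 0.318.

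Upstream sequences are shown for 3 genes: Wnt9b, one of the genes that chose the members, and Bmp4 and Edn1, which the rule did not use and which were lower in fibrosis members. Each is the 250 bases before the transcript start (RefSeq, GRCm38.p6, 5' to 3' on the strand of the gene). Capitals mark matches, on either strand, to the GATA motif (GATAA), the E-box (CACGTG), the CCAAT box (CCAAT) or the AP-1 motif (TGACTCA). Wnt9b lies at chr11:103749822-103750071 (minus strand), Bmp4 at chr14:46390670-46390919 (minus strand) and Edn1 at chr13:42301226-42301475 (plus strand).
Wnt9b: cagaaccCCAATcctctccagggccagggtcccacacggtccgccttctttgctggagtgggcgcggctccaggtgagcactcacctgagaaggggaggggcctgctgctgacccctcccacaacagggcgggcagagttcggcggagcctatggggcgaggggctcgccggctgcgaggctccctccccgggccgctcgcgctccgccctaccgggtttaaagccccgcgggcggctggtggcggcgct
Bmp4: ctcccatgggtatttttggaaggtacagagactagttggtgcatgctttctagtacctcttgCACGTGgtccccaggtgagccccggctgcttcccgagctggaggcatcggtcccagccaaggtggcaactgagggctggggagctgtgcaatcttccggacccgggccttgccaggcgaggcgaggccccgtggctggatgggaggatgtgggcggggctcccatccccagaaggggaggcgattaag
Edn1: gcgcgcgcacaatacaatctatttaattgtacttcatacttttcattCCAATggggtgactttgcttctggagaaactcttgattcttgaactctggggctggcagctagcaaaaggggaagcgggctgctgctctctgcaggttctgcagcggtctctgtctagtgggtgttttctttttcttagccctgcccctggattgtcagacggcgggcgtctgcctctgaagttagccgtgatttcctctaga
Wnt9b and Edn1 each held 1 CCAAT match and Bmp4 held 1 CACGTG match, 188 to 183 bases before the start. Of all 32851 windows of this length, 33.8% held the CCAAT box, 6.02% this E-box, 22.6% the GATA motif and 4.46% the AP-1 motif. The GATA and AP-1 motifs had no match in these 3 windows, which says only that those letters are not in them.

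The label was checked on 7 genes that the rule did not use. All 7 were at least 2-fold above the other endothelial cells in both libraries, beside 1.24% of the 4023 genes compared (and 0.696% that were 2-fold lower in both). Vwf stood 7.86-fold above the other endothelial cells in the normal library (95% interval 7.37 to 8.38) and 2.27-fold in fibrosis (1.94 to 2.66). Fmo2, a flavin monooxygenase, stood 11.9-fold above them (10.7 to 13.2) and 15.2-fold (10.9 to 21.4). The Wnt ligand Wnt2 stood 2.96-fold and 7.37-fold above them, thrombomodulin (Thbd), the endothelial anticoagulant receptor, 2.88-fold and 4.97-fold, and T-cadherin (Cdh13) 4.50-fold and 8.07-fold. The stem cell factor receptor Kit and cyclooxygenase 1 (Ptgs1) made up the 7, with Kit 2.10-fold and 2.59-fold above the others. Some of the 7 were as common in neighbouring groups. Vwf stood at 6.6 UMIs per 10000 in normal and 7.11 in fibrosis portal vessel cells. After thinning to 2000 UMIs, Thbd was held by 64.4% of normal members and 63.7% of normal portal vessel cells, and Kit by 54.8% of normal members and 69.7% of normal pericentral sinusoidal cells, which were chosen in part by Kit. Among normal members Kit stood at 2.56 UMIs per 10000 in those with a Vwf UMI and 8.91 in those without. By rule sum, Kit stood at 7.94 in normal and 5.83 in fibrosis members at 3 to 5. At 15 or more it was lowest, at 3.69 and 5.36. The 99 normal and 49 fibrosis members at 3 to 5 had the sinusoidal gene Stab2 at 13.8 and 10.7, against 2.05 and 3.21 at 15 or more.

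Members made up 11.3% of the 3487 endothelial cells past the limits in the normal library (10.2% to 12.4%) and 7.28% of 2307 in fibrosis (6.26% to 8.42%). After thinning each cell to 2000 UMIs, a rule sum of at least 2 was reached by 11.5% of 2803 normal and 7.76% of 1494 fibrosis cells. Among cells of intermediate depth the shares were 14.8% and 12.5%, with a 5% mitochondrial limit 12.4% and 2.20%, and for members with few transcripts of other cells 8.35% and 0.650%. The limits that keep other cell types out bore on the shares as well. Of the endothelial droplets with a rule sum of at least 3, the stellate and the lymphoid and macrophage limits removed 60 of 465 in normal (12.9%) and 261 of 436 in fibrosis (59.9%), 203 fibrosis droplets having over 3 UMIs of the macrophage gene Cd5l by itself. Those removed were deep, with a median of 14172 UMIs in normal and 22860 in fibrosis. Without those limits, an alternative added after the data were seen, 445 normal and 364 fibrosis cells were members, 11.9% and 10.3% of endothelial cells.

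Among genes at 1 or more UMIs per 10000 in the members, several ligands and receptors stood above the other endothelial cells in both libraries. Neurotensin (Nts), a peptide, stood 118-fold above the other endothelial cells in normal (72.8 to 205) and 69.7-fold in fibrosis (50.1 to 99.4), but 10 cells held 87.3% of its UMIs in the normal and 89.2% in the fibrosis members. Tgfb2, a transforming growth factor beta ligand, was more evenly held, in 120 of 393 and 51 of 168 members, and stood 31.2-fold and 20.1-fold above the others. Ackr3, an atypical receptor that takes up the chemokine Cxcl12, stood 8.41-fold and 9.04-fold above them. Entpd1 (CD39), which breaks down extracellular ATP, stood 10.8-fold and 6.08-fold above them, Amigo2, an adhesion protein, 6.58-fold and 4.07-fold, and the guidance ligand Sema3d 4.91-fold and 8.38-fold. Plvap, the diaphragm protein of endothelial openings, stood 2.52-fold and 2.38-fold above them.

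Of 11 arterial and portal genes compared, 5 were at least 2-fold lower in the members than in the other endothelial cells of both libraries (Efnb2, Dll4, Ltbp4, Adgrg6 and Msr1) and 2 were at least 2-fold higher (Cd9 and Il1r1), beside 0.696% and 1.24% of all genes compared. The Notch ligand Dll4 stood at 0.238 UMIs per 10000 in normal members against 1.61 in the others, and at 0.299 against 1.14 in fibrosis. Efnb2, the arterial ephrin ligand, stood at 0.263 against 1.58 and at 0.449 against 1.27. The adhesion receptor Adgrg6 stood at 0.178 against 2.20 and at 0.0998 against 1.06, and it was a portal vessel gene here, at 11.7 and 9.84 in those cells. The transcription factor Mecom stood at 0.263 against 1.39 and at 0.225 against 1.15. Portal vessel cells were chosen by other genes (Gja5, Nrg1 and Npr3), of which members could hold at most 2 UMIs. Of 17 sinusoidal genes compared, 0 passed 2-fold in both libraries in either direction, with a median log2 difference of -0.87 in normal and -0.54 in fibrosis against 0.00045 and 0.0083 over all genes.

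**Figure D1:**
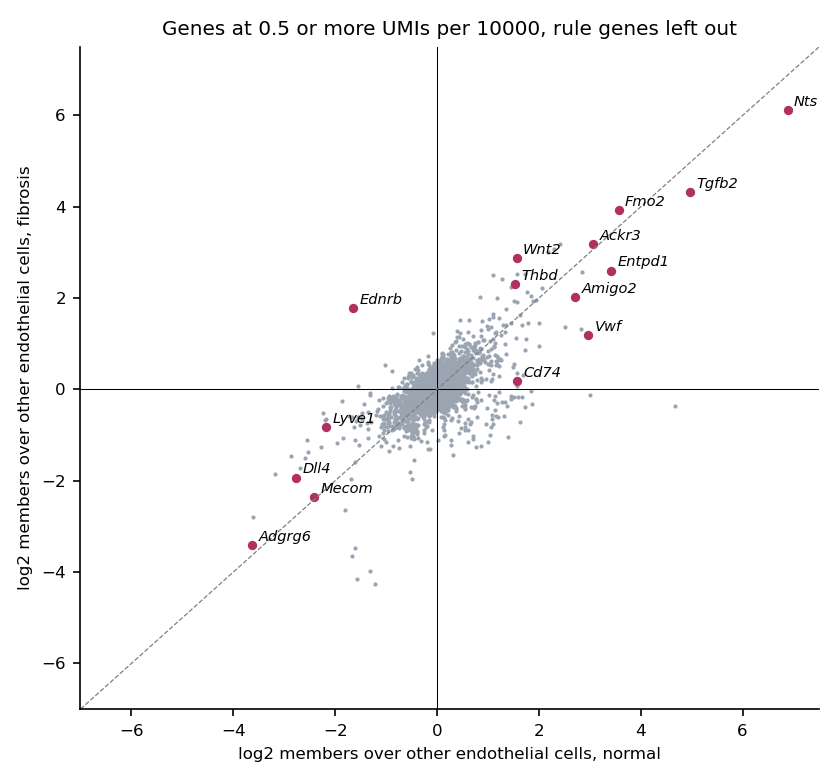
Each point is a gene outside the rule at 0.5 or more UMIs per 10000, placed by its log2 ratio of members over other endothelial cells in the normal (x axis) and the fibrosis library (y axis), and the dashed line marks equal ratios. Nts and Tgfb2 lie far above in both, Vwf lies under the line, and Ednrb is below 0 in normal and above 0 in fibrosis.

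Genes far above the other endothelial cells were listed in each library. In the normal library 43 genes outside the rule stood over 4-fold above the other endothelial cells, and in fibrosis 26, with 11 in both (25.6% of the normal and 42.3% of the fibrosis list), each list taking genes at 0.5 or more UMIs per 10000 in its own members. Of the 43, 20 stood over 4-fold above the others in fibrosis when that minimum was dropped, the further 9 being below it there. Of those 43 genes, 27 (62.8%) were at least 2-fold lower in fibrosis members than in normal members, and 1, Ackr3, was at least 2-fold higher. The 43 were chosen for being high in the normal members, so a lower value in the other library is in part what that choice gives.

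Among all 4678 genes compared between the libraries in the members (0.5 UMIs per 10000 or more in either), 180 were at least 2-fold higher in fibrosis (3.85%) and 272 at least 2-fold lower (5.81%). Vwf, Fmo2, Bmp4 and Eln were among the lower genes, and Ednrb, Lyve1 and the collagen IV genes among the higher ones. Most genes of the fixed lists passed in neither direction: of the 7 other central vein genes, 2 were lower (Vwf and Fmo2) and 0 higher. Of the lower genes, 161 were also 2-fold lower in the other endothelial cells at 0.5 UMIs per 10000 or more there. In lymphoid cells 163 were 2-fold lower, with no such minimum and with genes that lacked UMIs in the lower library counted too. The counts for these groups are therefore not alike, and the shares over all genes in those groups are not reported here. Of the higher ones, 77 were also 2-fold higher in the other endothelial cells and 129 in lymphoid cells, counted with the same unlike minimum.

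Vwf, the protein that tethers platelets to the vessel wall, is stored by continuous endothelium. It stood at 8.16 UMIs per 10000 in normal members (7.83 to 8.50) and 1.31 in fibrosis members (1.14 to 1.5), 6.23-fold lower. The gap was 10.4-fold without the limits on other cell types, 3.12-fold with a 5% mitochondrial limit and 1.1-fold, a ratio of 0.911, in the members with few transcripts of other cells (at most 2 UMIs each of Kupffer, stellate and fibroblast, and platelet genes), 291 normal and 15 fibrosis cells, where 2 of the fibrosis cells held 56.4% of the Vwf UMIs. In the other endothelial cells it stood at 1.04 and 0.576, and in portal vessel cells at 6.6 and 7.11. The range over single members ran from 0 to 56.8 UMIs per 10000 in normal and from 0 to 23.2 in fibrosis, with a median of 0 in both, so the ranges overlapped. At least 10 UMIs of Vwf were held by 101 of 393 normal members (25.7%) and 7 of 168 fibrosis members (4.17%). With each cell thinned to 2000 UMIs, 39.6% of 376 normal and 11% of 163 fibrosis members held a Vwf UMI, against 1.30% and 1.37% of lymphoid cells; unthinned, the shares were 48.1% and 29.8%.

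Fmo2 stood at 3.89 in normal and 0.755 in fibrosis members, 5.16-fold lower, and 10 of the fibrosis members held 95% of its UMIs there. It was also lower in the other endothelial cells, at 0.328 and 0.0496, and in lymphoid cells, at 0.531 and 0.229. The gap of Fmo2 in the members was 1.94-fold with a 5% mitochondrial limit, and the direction turned, to a ratio of 1.44, in the members with few transcripts of other cells. Elastin (Eln), which gives vessel walls their recoil, stood at 3.45 and 0.299, 11.5-fold lower (ratio 0.0869, 0.0636 to 0.116). In the other endothelial cells elastin stood at 0.338 and 0.243. Its gap in the members was 3.71-fold without the limits on other cell types and 2.02-fold in the members with few transcripts of other cells.

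Bmp4, a bone morphogenetic protein ligand, was held by few fibrosis members. It stood at 1.78 UMIs per 10000 in normal members (1.63 to 1.94) and 0.0499 in fibrosis members (0.0215 to 0.0984), 35.7-fold lower. The gap was 16.1-fold with a 5% mitochondrial limit, 7.62-fold without the limits on other cell types and 6.22-fold in the members with few transcripts of other cells, where the 15 fibrosis cells held 2 UMIs (ratio 0.161, 0.0194 to 0.585). A UMI of it was held by 144 of 393 and 8 of 168 members, in the latter never more than 1. In the other endothelial cells it stood at 0.0398 and 0.0253, so the fibrosis members lay 1.97-fold above them with an interval that included equality (0.775 to 4.47), where the normal members lay 44.7-fold above (34.3 to 59.2). Bambi, a decoy receptor that damps this pathway, stood at 0.840 and 0.275. The other lower genes of this list were Eng, an endothelial co-receptor, and Hamp, a hepatocyte gene, and 1 of the 20 compared, Inhbb, was 2-fold higher. Over all genes compared, 5.81% were lower and 3.85% higher.

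Further genes of the normal members were low in fibrosis. The peptidase Cpe stood at 1.0 and 0.118, the membrane glycoprotein Gpm6a at 1.5 and 0.169, and the kinase Nuak1 at 2.64 and 0.730. Cyp1b1, a cytochrome P450, stood at 0.938 and 0.0873, and matrix Gla protein (Mgp), which restrains calcification of vessel walls, at 0.591 and 0.137. For Mgp and Cyp1b1 the direction turned, to ratios of 1.62 and 1.22, in the 15 fibrosis members with few transcripts of other cells, and Cpe had a ratio of 0.693 and Gpm6a of 0.396 there. Cpe, Eln, Mgp and Cyp1b1 all came within 1.5-fold of the level of the other endothelial cells in fibrosis.

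**Figure D2:**
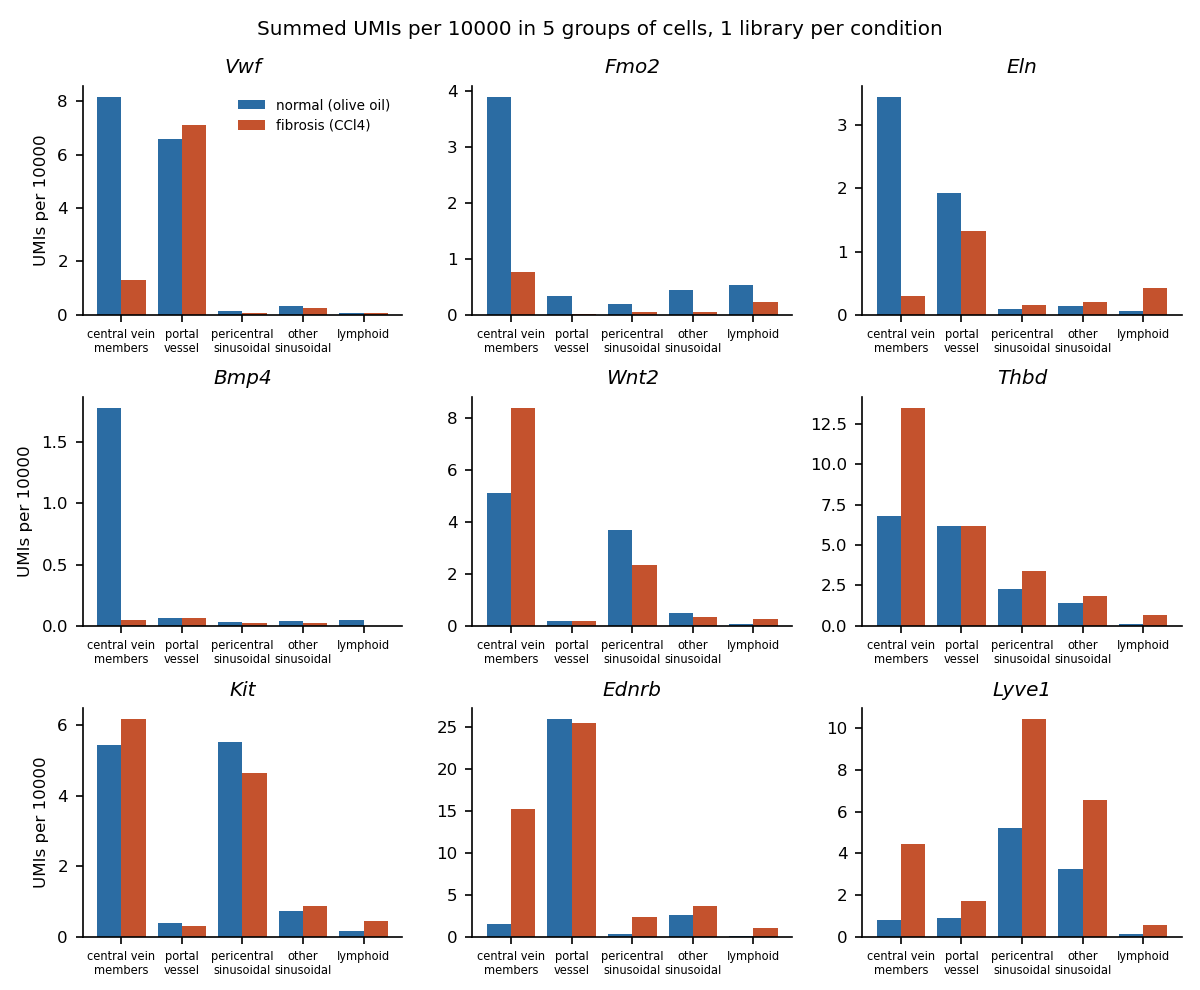
Bars give summed UMIs per 10000 (y axis, from 0) for 9 genes in 5 groups of cells, in the normal (blue) and fibrosis (orange) library. Vwf, Fmo2, Eln and Bmp4 are lower in the fibrosis members, Vwf is level in portal vessel cells, and Wnt2, Thbd, Ednrb and Lyve1 are higher in the fibrosis members.

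The libraries were also set side by side within ranges of the rule sum, as a description, since that sum chose the members. The ranges are not matched cells: at 3 to 5 the median depth was 5758 UMIs in normal and 7385 in fibrosis, and Rspo3 was 5.63-fold lower in fibrosis. At a sum of 15 or more (201 normal and 57 fibrosis members) Vwf stood at 12.3 and 2.86, Bmp4 at 2.85 and 0.0963, and Eln at 5.35 and 0.626. At 6 to 14 (93 and 62 members) Vwf stood at 4.30 and 0.514 and Eln at 1.42 and 0.0952. At 3 to 5 (99 and 49 members) Vwf stood at 0.408 and 0.110 with a ratio of 0.270 (0.0807 to 0.718), and the interval for Eln included equality (0.114 to 1.66). Wnt2 had a ratio of 0.993 at 3 to 5, 1.82 at 6 to 14 and 2.07 at 15 or more. At a sum of 3 to 5, then, Wnt2 was level. These ranges, and those of Kupffer UMIs given next, were added after the data were seen.

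**Figure D3:**
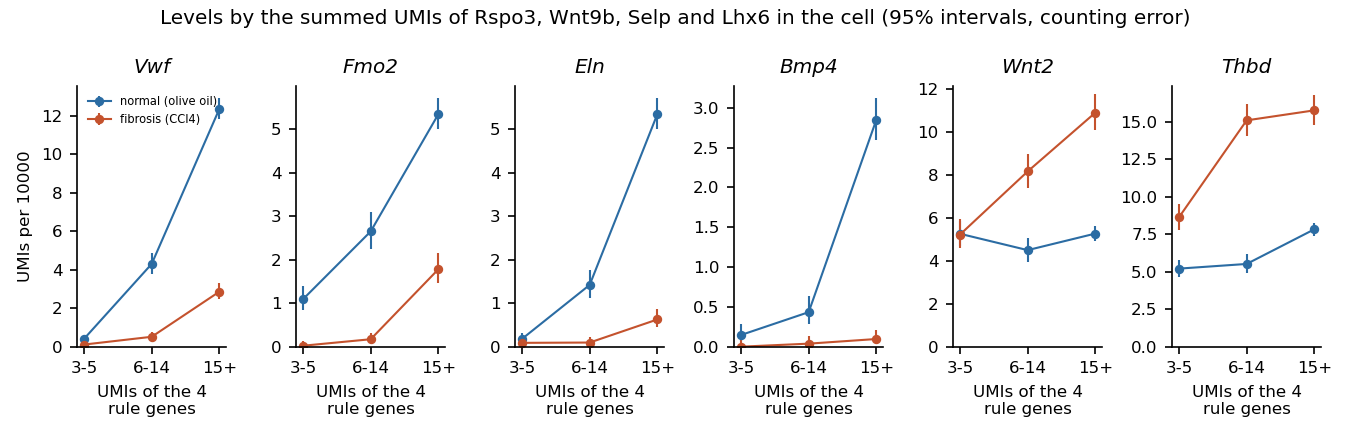
Points give UMIs per 10000 (y axis) of 6 genes in members grouped by their summed UMIs of the 4 rule genes (x axis), with 95% counting intervals, for the normal (blue) and fibrosis (orange) library. Vwf, Fmo2, Eln and Bmp4 climb with the rule sum and lie lower in fibrosis. Thbd lies higher in fibrosis in every range and Wnt2 at 6 and above.

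Members with a Vwf UMI, 189 normal and 50 fibrosis, are described by themselves. Because Vwf was lower in fibrosis, they are 48.1% of the normal and 29.8% of the fibrosis members, and their values are no independent support. Bmp4 stood at 2.97 and 0.0958 UMIs per 10000, Eln at 6.14 and 0.689 and Fmo2 at 6.70 and 2.22 in those cells. Rspo3 stood at 30.8 and 23.2, and Thbd at 6.97 and 16.1. Kit stood at 2.56 and 4.96 among the members with a Vwf UMI and at 8.91 and 6.77 among those without, 204 normal and 118 fibrosis cells. The sinusoidal genes were higher without a Vwf UMI as well. Stab2 stood at 1.36 and 3.41 with one and at 11.2 and 9.34 without, and Clec4g at 5.4 and 6.44 with and 17.4 and 12.3 without.

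Transcripts of other cell types differed between the libraries. Hepatocyte, Kupffer and mesenchymal transcripts differed in the same direction in members and in lymphoid cells, whereas lymphoid, neutrophil and dendritic, and cholangiocyte and mesothelial transcripts did not move alike in all groups. Summed over 16 genes, hepatocyte transcripts stood at 181 UMIs per 10000 in normal and 19.1 in fibrosis members, beside 239 and 32.6 in lymphoid cells, and 15 of the 16 were at least 2-fold lower in fibrosis. Kupffer cell and macrophage transcripts (15 genes outside the rule) stood at 9.39 and 23.2, beside 10.8 and 39.8 in lymphoid cells, with 10 of 13 compared at least 2-fold higher. Mesenchymal transcripts stood at 18.5 and 24.9, beside 17.2 and 33.7. Stellate and fibroblast transcripts stood at 3.18 and 4.57, beside 4.43 and 12.3, and smooth muscle transcripts at 0.0770 and 0.399, beside 0.0802 and 0.700. More than 2 UMIs of Clec4f, Vsig4, C1qa, C1qb and C1qc together were held by 24.9% of normal and 91.1% of fibrosis members, against 23.8% and 88.5% of lymphoid cells. Vwf stood at 0.0526 and 0.0673 and Bmp4 at 0.0451 and 0 in lymphoid cells, the last being no UMI in 174 cells. Lymphoid transcripts stood at 2.50 and 0.923 in members and at 2.60 and 3.03 in the other endothelial cells. Neutrophil and dendritic transcripts stood at 3.51 and 1.46 in members and at 1.80 and 1.99 in lymphoid cells, and cholangiocyte and mesothelial ones at 5.59 and 1.75 against 9.08 and 11.3. The gaps of several genes depended on which fibrosis members were taken: in the 22 with at most 3 of those Kupffer UMIs Vwf stood at 5.25 and Fmo2 at 4.32, against 8.29 and 4.18 in 342 normal members, whereas Bmp4 stood at 0.169 against 1.66. In the 97 fibrosis and 48 normal members with 4 to 9, Vwf stood at 0.900 against 7.01 and Fmo2 at 0.568 against 1.84. Nuak1 had a ratio of 0.858 in the first of these ranges, with an interval that included equality (0.561 to 1.26), and 0.226 in the second. The ratios were 0.366 and 0.0763 for Eln and 0.394 and 0.212 for Cpe. The part of these transcripts in the results was not tested.

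Wnt2, a ligand of the pathway, was higher in fibrosis members. It stood at 5.10 UMIs per 10000 in normal members (4.84 to 5.37) and 8.38 in fibrosis members (7.94 to 8.84), 1.64-fold higher, while in the other endothelial cells it stood at 1.72 and 1.14. Among these, in pericentral sinusoidal cells, Wnt2 stood at 3.69 and 2.33. Thinned shares of members with a Wnt2 UMI were 58.8% and 71.2% (lymphoid cells 1.88% and 4.79%; unthinned members 85.0% and 94.6%). Without the limits on other cell types its ratio was 1.11, and with a 5% mitochondrial limit 1.10. Per cell it was 2.16, and in the members with few transcripts of other cells 2.18. The receptor Fzd4 stood at 2.10 and 2.9. Of 9 Wnt pathway genes compared, 0 passed 2-fold in either direction, with a median log2 difference of 0.32 against 0.14 over all genes.

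Of the 13 genes of haemostasis and Weibel-Palade bodies compared, 2 were at least 2-fold lower in fibrosis, Vwf and Edn1, and 0 were higher. Over all genes compared, 5.81% were lower and 3.85% higher. Thbd lay at the 2-fold limit, at 6.79 in normal and 13.5 in fibrosis members (ratio 1.99, 1.87 to 2.12), and was held by 86.3% and 95.8% of members, or 64.4% and 81.6% after thinning (lymphoid cells 3.04% and 15.1%). In portal vessel cells it stood at 6.16 and 6.18, and in all other endothelial cells at 2.36 and 2.72. Ptgs1, which makes the prostanoid precursor, stood at 6.29 and 6.16 in members.

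Of the endothelin ligand and receptor genes, Edn1 was lower and Ednrb higher in fibrosis members. Edn1, the gene of the vasoconstrictor endothelin 1, stood at 3.43 in normal and 1.12 in fibrosis members, 3.06-fold lower (1.83-fold with a 5% mitochondrial limit and 5.49-fold without the limits on other cell types), and at 0.996 and 0.406 in the other endothelial cells. Its endothelial receptor gene Ednrb stood at 1.48 in normal members (1.34 to 1.63) and 15.1 in fibrosis members (14.5 to 15.8), 10.2-fold higher. The ratio of Ednrb was 5.32 without the limits on other cell types and 5.79 with a 5% mitochondrial limit. In the members with few transcripts of other cells it was 21.8. In the other endothelial cells Ednrb stood at 4.64 and 4.39, in portal vessel cells at 25.9 and 25.5, and in lymphoid cells at 0.118 and 1.01. Pericentral sinusoidal cells had 0.323 and 2.37, so Ednrb was higher in fibrosis there as well. Of the Ednrb UMIs of the members, 10 cells held 46.3% in normal and 31% in fibrosis. A UMI of Ednrb was held by 92 of 393 normal and 145 of 168 fibrosis members, and after thinning by 13.3% and 69.9% (lymphoid cells 1.88% and 21.2%). The middle member held 0 in normal and 10.0 UMIs per 10000 in fibrosis, and the highest 40.6 and 88.5, so the ranges overlapped. Ednrb was 0.319-fold of the other endothelial cells in the normal library and 3.45-fold in fibrosis.

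**Figure D4:**
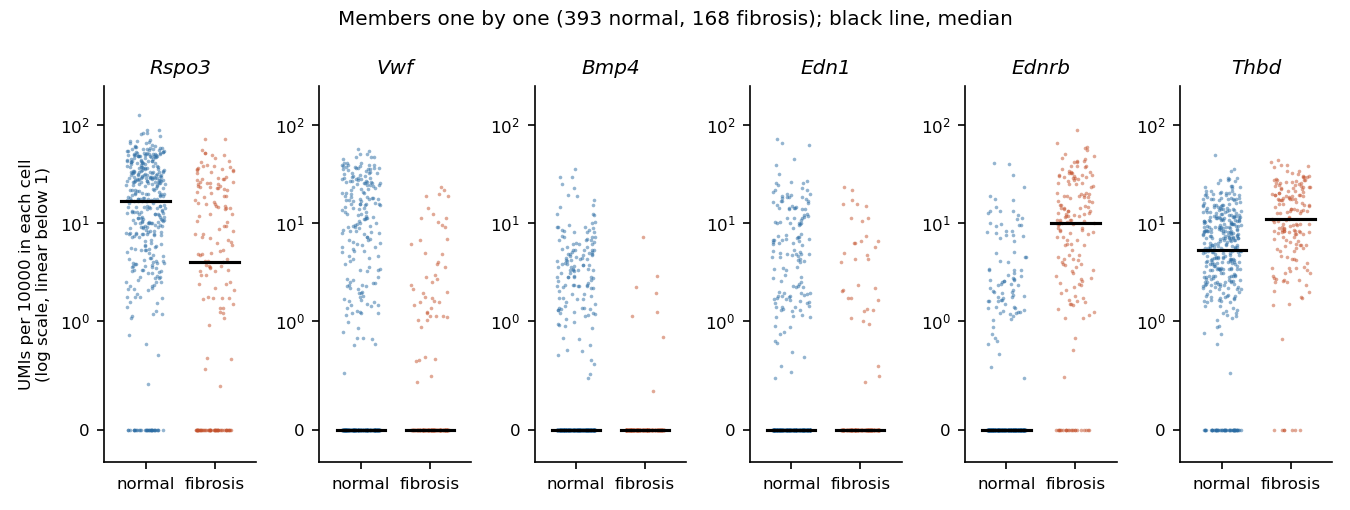
Each point is 1 member, with UMIs per 10000 on a log scale that is linear below 1, and the black line is the median over cells (393 normal, blue, and 168 fibrosis, orange). Ednrb and Thbd sit higher in fibrosis, and most cells of both libraries hold no Vwf, Bmp4 or Edn1.

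Of 17 sinusoidal genes compared, 2 were at least 2-fold higher in fibrosis members and 0 lower, beside 3.85% and 5.81% of all genes compared. Lyve1, a hyaluronan receptor, stood at 0.822 in normal and 4.42 in fibrosis members (5.38-fold), and Cd36, a fatty acid receptor, at 2.11 and 9.75 (4.63-fold). Both were higher in the other endothelial cells too, where Lyve1 stood at 3.73 and 7.88 and Cd36 at 6.70 and 14.9, and in lymphoid cells Cd36 stood at 0.383 and 2.96. The scavenger receptor Stab2 stood at 5.82 and 7.41 in members and the lectin Clec4g at 10.8 and 10.4. By range of the rule sum, Lyve1 stood at 2.04 and 5.5 at 3 to 5 and at 0.426 and 2.52 at 15 or more. In the 15 fibrosis members with few transcripts of other cells the ratio of Lyve1 was 1.92, under 2-fold, and that of Cd36 2.85.

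Of 28 matrix and basement membrane genes compared, 6 were at least 2-fold higher in fibrosis and 6 lower, beside 3.85% and 5.81% of all genes compared. The collagen IV chains of the basement membrane were higher, Col4a1 at 4.36 and 13.4 (3.08-fold, 2.87 to 3.30) and Col4a2 at 2.03 and 5.97. In the other endothelial cells Col4a1 stood at 5.15 and 10.9, and in lymphoid cells at 0.278 and 2.03. Its ratio was 1.68, under 2-fold, in the 15 fibrosis members with few transcripts of other cells. Sparc, a matrix-binding protein, stood at 5.79 and 17.7, and the collagen cross-linking enzyme Loxl2 at 0.326 and 1.44. On the lower side stood Eln, Mgp, Bgn, Ltbp4, Ctgf and Cyr61. The fibrillar collagens Col1a1 (0.0665 and 0.930) and Col1a2 (0.0805 and 1.32) were higher in fibrosis members but higher still in fibrosis lymphoid cells, at 2.96 and 3.59. Those lymphoid cells were shallower, with a median of 2555 UMIs against 8383 in fibrosis members. The highest of them held 136 UMIs of Dcn, Colec11 and Lum together, against 7 in the highest fibrosis member.

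**Figure D5:**
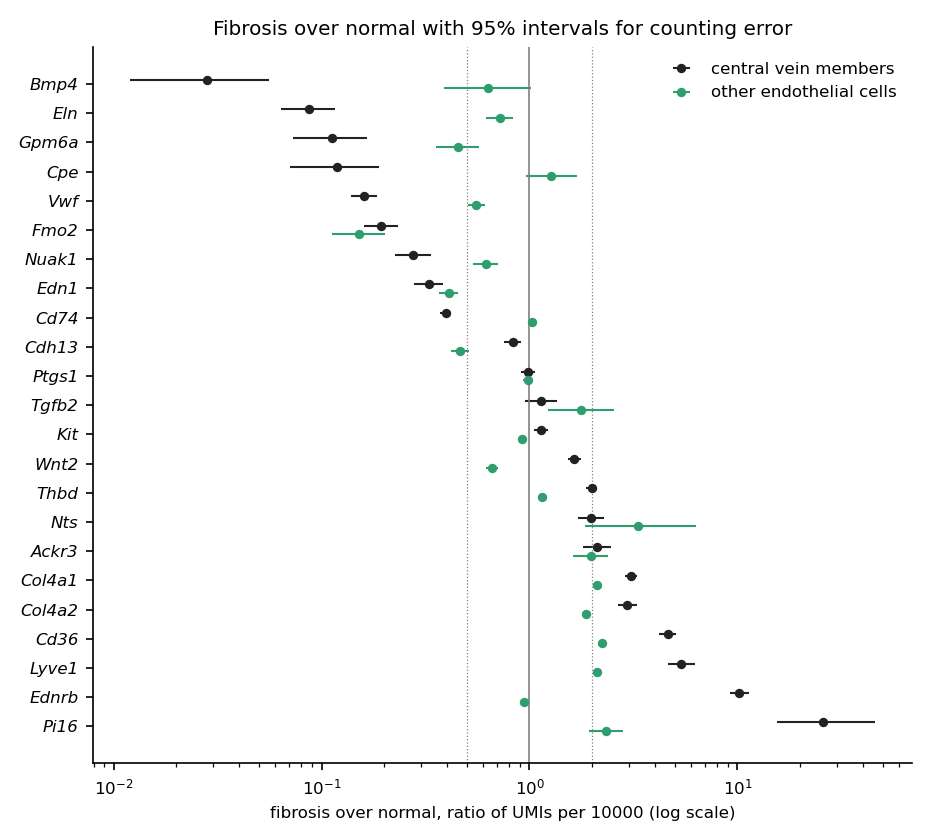
Points give the ratio of fibrosis over normal in UMIs per 10000 (log x axis) for 23 genes, with 95% counting intervals, in members (black) and other endothelial cells (green); dotted lines mark 2-fold. Bmp4, Eln, Cpe and Vwf lie further left in members, and Ednrb, Lyve1 and Pi16 further right.

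Among 19 leukocyte adhesion and chemokine genes compared, 6 were at least 2-fold higher and 0 lower, beside 3.85% and 5.81% of all genes compared. The monocyte chemokine Ccl2 stood at 0.0630 in normal and 1.15 in fibrosis members (18.3-fold, 11.3 to 31.6), and a UMI was held by 14 of 393 and 61 of 168. It stood at 0.113 and 0.455 in the other endothelial cells and at 0.0802 and 0.350 in lymphoid cells. Cxcl1, a neutrophil chemokine, stood at 0.413 and 1.27, beside 0.316 and 1.05 in lymphoid cells, and its direction turned, to a ratio of 0.683, in the members with few transcripts of other cells. Ackr3 stood at 1.03 and 2.18. Pi16, a peptidase inhibitor, was in no list and stood at 0.0560 and 1.44 in members, at 0.119 and 0.277 in the other endothelial cells, and was held by 11 and 84 members.

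Of 27 interferon and MHC genes compared, 6 were at least 2-fold lower in fibrosis and 1 higher, beside 5.81% and 3.85% of all genes compared. The MHC class II chain H2-Aa stood at 7.56 and 3.31 and its partner Cd74 at 17.3 and 6.84 in members, against 5.84 and 6.01 for Cd74 in the other endothelial cells. With a 5% mitochondrial limit the direction of Cd74 turned, to a ratio of 1.51. A few members carried much of it: the median member held 1.42 in normal and 1.08 in fibrosis, the highest 173 and 139, and a UMI was held by 62.9% and 65.5%. Siglech, a gene of plasmacytoid dendritic cells, was held by 32 normal members, at a median of 8.67 UMIs per 10000 in those, and by 16 fibrosis members, at 1.37. The part of such cells in the Cd74 result was not tested. Lymphoid cells, which make Cd74, stood at 39.6 and 38.7. The immunoproteasome subunit Psmb8 stood at 2.10 and 0.649 in members and at 1.22 and 0.791 in the other endothelial cells.

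Of 13 cell cycle genes compared, 5 were at least 2-fold higher and 1 lower, beside 3.85% and 5.81% of all genes compared. The higher ones were Mcm2, Mcm3, Mcm5 and Mcm6, subunits of the replication helicase, and Cdkn1a, a cell cycle inhibitor. Mcm5 stood at 0.165 and 0.736 in members, at 0.296 and 0.649 in the other endothelial cells and at 0.446 and 1.17 in lymphoid cells. The growth regulator Myc stood at 0.112 and 0.861. Hspa5, a chaperone of the endoplasmic reticulum that was in no list, stood at 6.55 and 18.6 in members and 6.17 and 20.6 in the others, while in lymphoid cells it stood at 15.4 and 14.7.

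For the transcription factor, Notch, growth factor and guidance lists, the shares over all genes compared were 3.85% higher and 5.81% lower. Of 31 endothelial transcription factors compared, 3 were at least 2-fold higher, Fli1, Ets1 and Bcl6b, and 0 lower. Ets1 stood at 5.18 and 11 in members and at 9.34 and 12.4 in the other endothelial cells, so the fibrosis members lay nearer to them. Of 6 Notch genes compared, 0 passed 2-fold, and the Notch target Hes1 stood at 2.49 and 1.80. Among 19 angiocrine growth factors and receptors, 3 were at least 2-fold higher, among them Hgf, the hepatocyte mitogen, at 0.196 and 0.942, and 1, Igf1, was lower. Of 13 axon guidance genes, Plxnc1, a semaphorin receptor, was higher, at 5.89 and 13.5, and Plxna4 lower, at 0.920 and 0.443.

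Of the 12 genes highest in a filtered ranking of fibrosis over normal, several were higher in the other endothelial cells as well. That ranking took only genes past a minimum level whose ratio differed from that in lymphoid cells, by the margin stated with the named genes. Ednrb, Lyve1 and Cd36, with high ratios in members, are not among the 12. Tnfaip3, an inhibitor of NF-kappa-B signalling, stood at 0.556 and 2.38 in members and at 0.577 and 2.14 in the others, and the haem oxygenase Hmox1 at 0.360 and 1.27 against 0.535 and 1.64. The intermediate filament gene Nes stood at 0.535 and 1.84 against 0.739 and 1.49, and Ckap4, a protein of the endoplasmic reticulum, at 1.39 and 4.66 against 1.80 and 4.22. The interferon-induced gene Rsad2 stood at 0.563 and 1.87 against 1.04 and 1.40, and the lysosomal protease Lgmn at 3.98 and 11.5 against 5.80 and 14.3. In lymphoid cells Tnfaip3 stood at 1.70 and 2.68, Hmox1 at 0.208 and 1.56 and Lgmn at 1.0 and 8.75. The macrophage gene Gpnmb had no UMI in normal members and stood at 1.02 in fibrosis members, beside 2.62 in fibrosis lymphoid cells. Of the 12 lowest in the same ranking, Net1 stood at 1.04 and 0.112 in members and at 0.244 and 0.185 in the others.

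Other genes that set the members apart in both libraries were the transporter Slco3a1, at 2.78 against 0.666 UMIs per 10000 in normal and 2.96 against 0.633 in fibrosis, the GTPase Arl4d, at 1.98 against 0.550 and 1.35 against 0.328, and the laminin receptor Bcam, at 2.35 against 0.711 and 3.21 against 0.558. Bcam was at a like level in portal vessel cells, 2.54 and 2.81. Lower in the members were the transcription cofactor Ldb2, at 0.574 against 2.78 and 0.911 against 2.17, the ATPase Atp13a3, at 0.430 against 2.49 and 0.549 against 1.41, and the tight junction gene Cldn5, at 1.83 against 5.31 and 1.71 against 3.95. For Atp13a3 the others were led by portal vessel cells, at 15.3 and 16.4, whereas pericentral sinusoidal cells had 0.344 and 0.308, below the members.

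The remaining lists were mixed, beside 3.85% of all genes compared that were higher and 5.81% that were lower. Of 14 genes of continuous endothelium compared, 4 were at least 2-fold lower in fibrosis members (Cav1, Vwf, Eng and Cd200) and 1, Ly6a, was higher. Of 19 lipid and retinoid genes, 6 were lower, among them the retinol and aldehyde dehydrogenases Adh1 and Aldh1a1, and 3 were higher, Cd36, the lipoprotein lipase Lpl and the receptor Lrp1. Of 12 mesenchymal genes, 5 were higher (Col1a1, Col1a2, Dcn, Snai1 and Twist1) and 2 lower (S100a4 and S100a6), with the mesenchymal sum of lymphoid cells given above. Of 26 immediate early and heat shock genes, 2 were higher, Fosl2 and Myc, and 2 lower, Hspa1a and Hspa1b. Haemoglobin and other erythroid transcripts stood at 19.1 UMIs per 10000 in normal and 0.393 in fibrosis members, beside 57.4 and 7.35 in lymphoid cells. A single normal member held 55.3% of these UMIs, and without it, an alternative added after the data were seen, the normal members stood at 8.57.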

How the data were processed

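The authors aligned scRNA-seq reads to mm10 with Cell Ranger 3.0.1 (submitters' processing notes) and deposited UMI counts per gene and cell, not normalized, for 8130 normal cells (44062632 UMIs) and 6437 fibrosis cells (53288463 UMIs). Each table lists its own set of genes, and the 19219 genes found in both tables and those of one table alone were all read, an unlisted gene as 0. The study's methods state that doublets were excluded; none were removed here, and Scrublet marked 1 kept cell in each library.

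Members were chosen by the rule in the report, and the members, lists and comparisons were chosen with earlier results of these data known. Counts were summed over the cells of a group and divided by the group's UMIs (per 10000). Rates carry exact Poisson intervals, ratios exact conditional binomial intervals and shares exact Clopper-Pearson intervals, all at 95%. A count of 0 was read against a limit of 3 counts. A gene was compared at 0.5 or more UMIs per 10000 in either group and called at 2-fold, with no test, since each condition is 1 library. The 15 genes of the rule were left out of counts of calls. Shares of cells were also computed after thinning to 2000 UMIs, without shallower cells.

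Named genes were the markers; the 12 highest and 12 lowest ratios of fibrosis over normal at 1 or more UMIs per 10000 and 20 or more UMIs whose log2 ratio differed by at least 1 from that in lymphoid cells; the 15 highest and 10 lowest ratios of members over other endothelial cells; and up to 4 genes of each of 29 lists. Outside this rule, and chosen after their values were seen, are Stab2, Edn1, Thbd, Kit, Cxcl12, Eng, Inhbb, Cpe, Nuak1, Clec4f, Vsig4, C1qb, Clec4g, Sparc, Bgn, Ctgf, Cyr61, H2-Aa, Mcm3, Cdkn1a and Hspa5, and members of lists that are named only as having passed 2-fold. Serpina1e, Car3, Hpd, Fga, Chchd10, Rarres2, Bhmt and Akr1c6, among the 12 lowest, were 2-fold lower in lymphoid cells too and are named here only. Not every gene of the comparisons is reported here. Promoter windows come from RefSeq (GRCm38.p6). Intervals and calls were run on counts simulated with counting error only. Such counts have no spread between cells, so the run does not show how the intervals hold for real cells. Analysis used Python 3.11.15, numpy 2.4.6, scipy 1.17.1, pandas 2.3.3 and scanpy 1.11.5 (Scrublet at an expected doublet rate of 0.06). Alternatives changed the rule, the filters, the scaling and the minimum.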

Additional observations from a re-analysis of the deposited data

Results flagged for a closer look

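In the 19 genes given here the ratio of fibrosis over normal lay at least 1.5-fold on one side of 1 in the members and at least 1.5-fold on the other side in the other endothelial cells, with counting intervals that excluded 1 in both. The difference between the groups was not tested. Wnt2 was the gene that was higher in fibrosis in the members, with a ratio of 1.64 against 0.66 in the other endothelial cells. Its ratio in the members was under 1.5 without the limits on other cell types (1.11) and with a 5% mitochondrial limit (1.10). It was 2.16 per cell and 2.18 in the members with few transcripts of other cells. Of the genes that follow, the ratio in members turned to 1.22 for Cyp1b1 in the members with few transcripts of other cells. For Siglech it turned to 1.5 at the 5% mitochondrial limit. Of the genes lower in fibrosis members, a first 6 gave ratios in members, then in other endothelial cells, of 0.0931 and 3.06 for Cyp1b1, 0.185 and 1.64 for Prss23, 0.497 and 5.1 for Samd5, 0.552 and 3.23 for Fndc1, 0.591 and 3.1 for Ntn1 and 0.47 and 1.59 for Pltp. The remaining 12, many of them known from dendritic or other myeloid cells, gave 0.629 and 2.3 for Ctsh, 0.619 and 1.53 for Gpsm3, 0.589 and 1.67 for Irf8, 0.587 and 2.02 for Itgb2, 0.38 and 2.08 for Plbd1, 0.584 and 1.96 for Pld4, 0.417 and 1.55 for Siglech, 0.419 and 1.69 for Spi1, 0.476 and 1.62 for St8sia4, 0.574 and 1.59 for Tyrobp, 0.398 and 1.77 for H2-DMb1 and 0.396 and 1.76 for Bcl11a.

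Endothelial droplets with a rule sum of at least 3 that the limits on other cell types removed are outside the comparisons. They were 59.9% of such droplets in fibrosis and 12.9% in normal, and carried a median of 11 and 11.5 UMIs of the 4 rule genes. Among all endothelial droplets, with or without those transcripts, the limits removed 34.9% in fibrosis and 6.81% in normal.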

How the results depend on the processing

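No paired analysis was possible because each condition is 1 library, and for the same reason no replicate could be left out. Under the alternatives to the rule and the filters (a rule sum of 2 or 5, without Selp or Rspo3, an intermediate depth, the top 5% of doublet scores left out) the counts of calls stayed within 1.5 times those reported. A 5% mitochondrial limit left 91 normal and 15 fibrosis members, with 589 genes higher and 412 lower in fibrosis, and 76 higher and 61 lower in members than in other endothelial cells. Without the limits on other cell types, an alternative added after the data were seen, there were 364 fibrosis members, 88 genes were higher and 18 lower than in other endothelial cells, and the genes higher in fibrosis made up 48.2% of those called, against 39.8%. Purer members, with at most 2 UMIs of Kupffer, mesenchymal and platelet genes, left 291 normal and 15 fibrosis cells, with 779 genes higher and 572 lower. Per cell instead of per 10000 UMIs, 610 genes were higher and 194 lower, 75.9% of calls being higher; the median log2 ratio over all genes was then 0.53 instead of 0.14. A minimum of 1 per 10000 gave 110 higher and 157 lower in fibrosis and 16 lower than in other endothelial cells, and a minimum of 0.2 gave 313 and 622, with 82 and 49 over and under other endothelial cells. The mean over cells gave 81 genes higher than in other endothelial cells.

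Genes under 2-fold as reported were not listed for a change of direction, and Nts, at 1.97, fell to 0.966 at the 5% mitochondrial limit. In the 22 fibrosis members with at most 3 Kupffer UMIs, Fmo2 had a ratio of 1.03. Among the named genes past 2-fold, ratios of fibrosis over normal that changed direction under the alternatives did so where 15 fibrosis cells remained. They were Cd74 (1.51), Ighm (1.5) and Siglech (1.5) at the 5% mitochondrial limit, and Fmo2 (1.44), Prox1 (1.01), Cxcl1 (0.683), Mgp (1.62), Cyp1b1 (1.22) and C1qa (0.816) in purer members, where 2 cells held 64.1% of the Fmo2 and 56.4% of the Vwf UMIs. Vwf had a ratio of 0.911 there, 0.320 at the 5% limit and 0.0966 to 0.211 under the others, and Bmp4 0.0237 to 0.161 under all. Ednrb ranged from 5.32 to 21.8. In purer members Eln (0.496), Lyve1 (1.92) and Col4a1 (1.68) moved by over 1.5 times, the last 2 to under 2-fold, as did Gpm6a (0.396), Cd36 (2.85) and Cd74 (0.148). The cause was not tested. The 1602756 UMIs of the fibrosis members limit what was detectable, and 3 counts are 0.0187 UMIs per 10000 there.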
